A study of Mus musculus with 12 samples.

Results

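Adipocyte nuclei of the mouse depot labelled mPRAT were compared between 2 single-nucleus RNA libraries, 1 at 2 months and 1 at 6 months of age. Barcodes with 300 or more detected genes were kept if mitochondrial transcripts made up no more than 10% of their UMIs (unique molecular identifiers, each 1 counted RNA molecule). A nucleus was called an adipocyte when it had at least 3 UMIs summed over Adipoq, Plin1, Plin4, Lipe, Cidec and Acsl1, and more of these than of Flt1, Ptprb, Lama2, Dcn, Mrc1 and Ptprc. This gate kept 4165 of 6156 nuclei (67.7%) at 2 months and 4264 of 11412 (37.4%) at 6 months, 8429 nuclei of the 74816 adipocyte nuclei in the series. Both libraries came from male C57BL/6J mice on normal chow, housed at 22 °C. The titles give 2 and 6 months, while the age fields give 8 and 16 weeks. The animals behind each library are not stated, and mPRAT is not spelled out in the labels. Of the other 10 libraries, those of mPRAT at 1 month, of mPRAT kept at 4 °C for 3 days, and of the depots labelled iBAT, lPRAT and iWAT are used for levels.

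Brown adipocytes burn fatty acids and glucose for heat through Ucp1, a mitochondrial protein that lets protons bypass ATP synthesis, and noradrenaline drives this through beta-adrenergic receptors and cAMP. White adipocytes store triglyceride in 1 large droplet and secrete hormones such as leptin. Whitening is the name for a brown depot whose adipocytes lose heat-producing genes and take on lipid storage and white-type genes with age or warmth.

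At 6 months, white adipocyte genes such as Npr3 and Lep and genes of fatty acid synthesis such as Acly were at higher levels than at 2 months, as was the neuregulin receptor gene Erbb4. Dio2 and Ppara were at lower levels. The thermogenic list as a whole had a median log2 ratio of -0.12 and Ucp1 one of -0.36, which is short of a 2-fold loss. Neither direction held in nuclei of 2000 to 6000 UMIs, where these values were 0.24 and 0.024. The summed list was still slightly lower at 6 months there. In nuclei of 2000 to 6000 UMIs, a band that narrows but does not remove the gap in depth (a mean of 3193 UMIs at 2 months and 4213 at 6 months), the log2 ratio of Npr3 was 0.87, that of Lep 0.57, that of Acly 0.99 and that of Ppara -0.56, all short of 2-fold, while Erbb4 (1.89) and Dio2 (-1.29) stayed past it.

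With 1 library per age there were no replicates and no test. Values are UMIs summed over the adipocyte nuclei of a library and scaled to a total of 1000000 (CPM), and a difference is the log2 ratio of the 6-month over the 2-month level, with a 95% exact conditional binomial interval that covers counting error only. Differences between animals, dissections and library preparations cannot be told apart from age. The adipocyte nuclei held 10191240 UMIs at 2 months and 30581974 at 6 months. Their median depth differed too, at 1798 UMIs per nucleus at 2 months and 6136 at 6 months. The share of barcodes over the mitochondrial limit was 22.1% at 2 months and 2.03% at 6 months, and 13 barcodes occurred among the adipocyte nuclei of both libraries. Gm42418, a gene model that overlaps ribosomal RNA and was chosen after its values were seen, held 27341 CPM at 2 months and 6201 CPM at 6 months. At the gate's lower edge, 225 and 164 nuclei had exactly 3 adipocyte UMIs, with Ucp1 at 90.7 and 15.4 CPM, and 298 and 247 nuclei had 2, with Ucp1 at 23.6 and 8.72 CPM.

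Defining adipocyte markers were seen more often inside the gate than outside it. Plin1, which coats the lipid droplet, had a UMI in 69.4% of the gated nuclei at 2 months and 93.3% at 6 months, against 5.12% and 15.1% of the nuclei outside the gate. Lipe, hormone-sensitive lipase, was seen in 81.6% and 95.8%, and Cidec, which fuses droplets, in 73.5% and 84.9%. Adipoq, the gene of adiponectin, was seen in 25.2% and 60.3%. Without Acsl1, a gene that other cells also use, 82.9% of the gated nuclei at 2 months and 95.8% at 6 months reached 3 UMIs. Acsl1 alone carried 111 nuclei at 2 months, 26 of them with 3 or more tubule UMIs, and 12 at 6 months. These genes set the gate, so the shares describe it and test nothing.

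Markers of other cell types were seen inside the gate, and their levels differed between the ages. The 6 proximal tubule markers of the kidney summed to 624 CPM in adipocyte nuclei at 2 months, and 96 nuclei with 3 or more such UMIs held 91.8% of them. At 6 months the same markers summed to 2.06 CPM, with Slc22a6 at 0. The distal nephron list gave 175 and 0.621 CPM, and the urothelial list 292 and 29.7 CPM. These lists do not cover all kidney genes. At 6 months 14 gated nuclei, described below, held the kidney genes Pax2 and Pax8 at 1631 and 866 CPM. B cell markers went the other way, with 8.24 CPM at 2 months and 326 CPM at 6 months, when 473 nuclei had 3 or more B cell UMIs. The T or NK cell list gave 25.4 and 86.3 CPM. Macrophage markers, led by Mertk, gave 98.7 and 85.9 CPM, and progenitor markers 41.1 and 70.0 CPM. The remaining lists were endothelial (32.0 and 55.8 CPM), mural (49.7 and 34.5 CPM), epithelial (156 and 15.2 CPM), mesothelial (55.5 and 9.55 CPM), adrenal cortex (23.2 and 79.1 CPM), skeletal muscle (6.67 and 13.96 CPM) and Schwann cell (132 and 221 CPM, led by Scn7a). The Schwann list at 6 months and the adrenal cortex list at 2 months were above their levels outside the gate (138 and 8.75 CPM). They were led by Scn7a (172 CPM) and Mc2r (16.1 CPM), so there they are not read as RNA of other cell types. The part of such RNA in each result was not tested beyond stricter gates. Of these, 1 also required more adipocyte UMIs than UMIs of 11 other marker lists, which include Schwann and adrenal cortex. Another left out nuclei holding markers of other cell types.

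**Figure D1:**
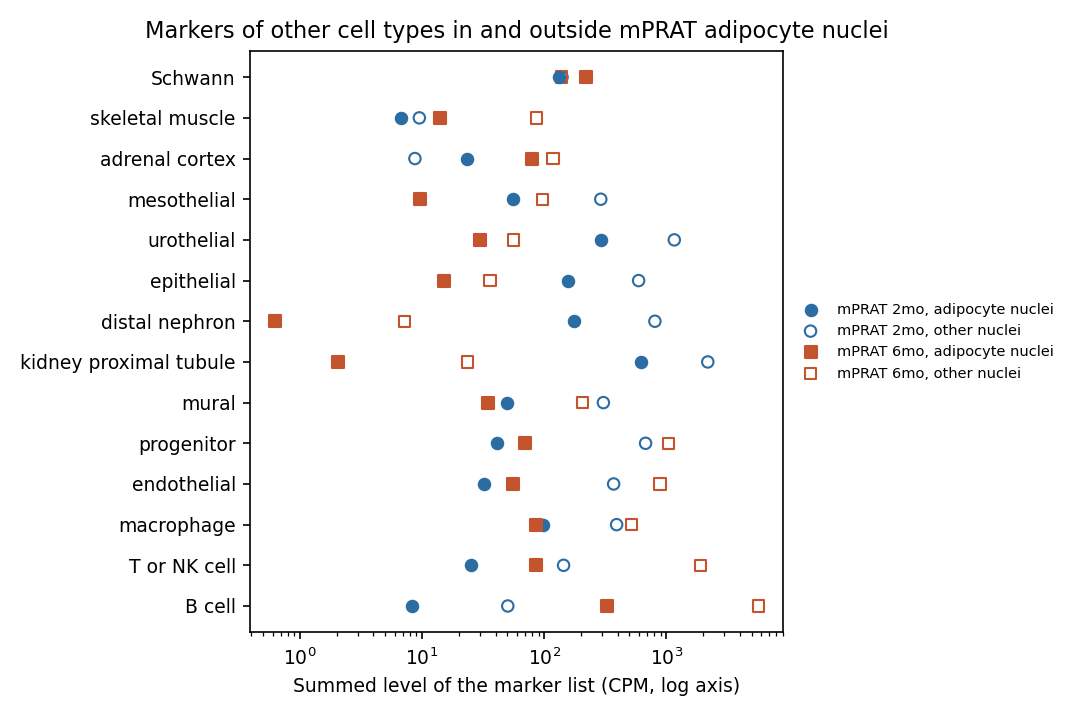
Summed level of each marker list in CPM (log axis) for adipocyte nuclei (filled) and for the kept nuclei outside the gate (open) at 2 months (circles) and 6 months (squares), 1 library each. The proximal tubule and distal nephron lists stand at 624 and 175 CPM in adipocyte nuclei at 2 months and near 0 at 6 months, while B cell markers stand at 8.24 and 326 CPM. These lists do not cover all kidney genes.

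Across all genes, 8716 had a mean of at least 10 CPM and at least 50 UMIs in the pair of libraries. Of these, 405 (4.65%) were at least 2-fold higher at 6 months and 472 (5.42%) at least 2-fold lower, and the median log2 ratio was 0.085. Among the genes that were lower, 433 (91.7%) were at a higher level in nuclei outside the gate, as were 213 (52.6%) of those that were higher. Genes outside the lists are therefore named only from the 4288 whose level in adipocyte nuclei was at least that in the other nuclei, called adipocyte-level genes. The level was compared in the library where the gene was higher, and 3044 of the 4288 met this in both libraries. Of the named higher genes, Ptchd4, Slc14a2, Bc1, Rasgrf2, Emp1, Adamts5, Dtna, Ryr2 and Dpt were lower than outside the gate at 2 months. Of the named lower genes, Fhl3, Irf4, Atg4a and Sdc4 were lower than outside it at 6 months. List members are given whatever their level outside. Of the 4288 adipocyte-level genes, 192 (4.48%) were at least 2-fold higher at 6 months and 39 (0.910%) at least 2-fold lower. Genes with a low level at 2 months met the minimum through the 6-month library alone, so their number is no support for a direction.

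**Figure D2:**
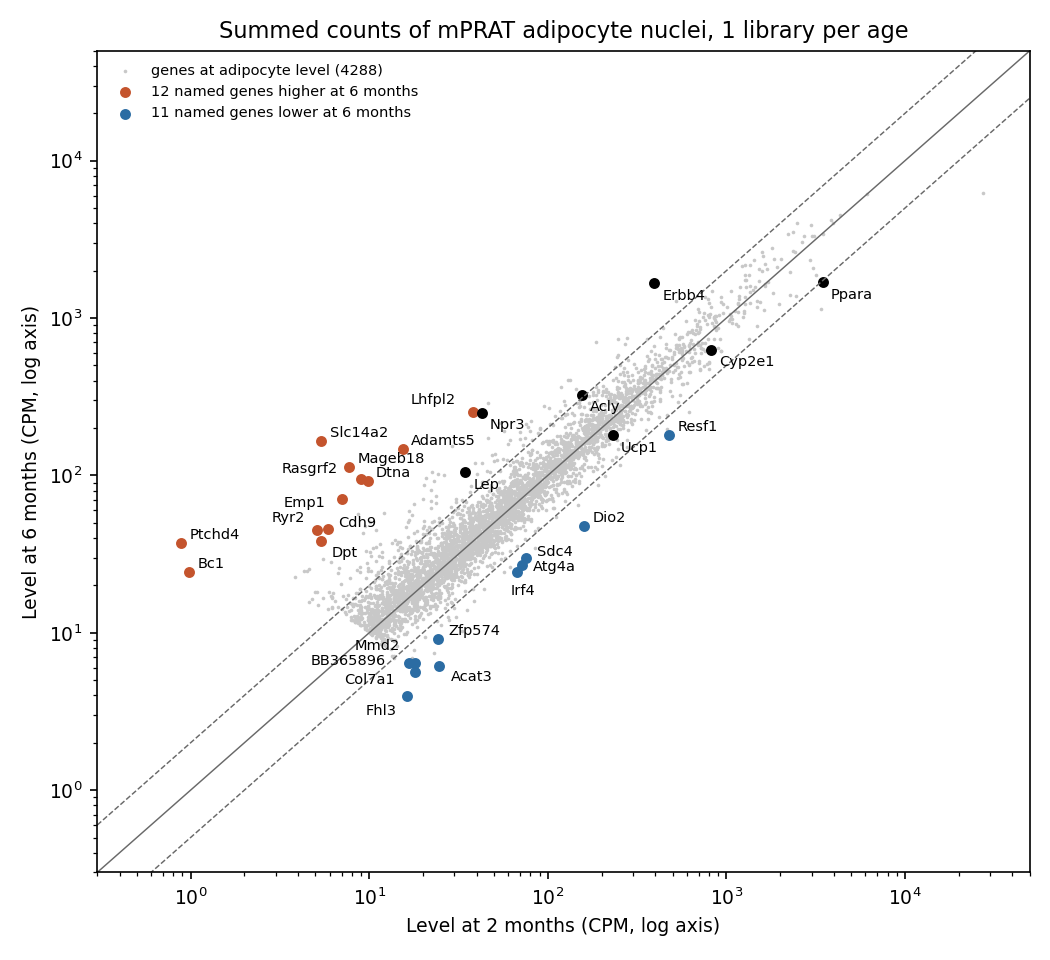
Level in CPM at 2 months (x, log axis) and 6 months (y, log axis) of the 4288 adipocyte-level genes, 1 point per gene. The solid line marks equal levels and the dashed lines 2-fold differences. The 12 named higher genes lie well above the upper line, and more genes pass it (192) than the lower line (39). Each gene was compared with the nuclei outside the gate in the library where it was higher, so these numbers are no support for a direction.

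White adipocyte genes were higher at 6 months. The list had 12 genes, of which 8 passed the minimum. Of the 8, 4 were at least 2-fold higher (Npr3, Lep, Nnat and Aldh1a1) and none was 2-fold lower, beside 4.65% and 5.42% of all genes. The median log2 ratio was 1.03 beside 0.085 over all genes. Members of this and the other lists were chosen with earlier results of these data known, so such shares and medians are a description. Npr3, the natriuretic peptide clearance receptor, which removes a lipolytic hormone, was at 42.7 CPM at 2 months and 250 CPM at 6 months, a log2 ratio of 2.55 (2.41 to 2.70). It stood at 61.9 CPM at 1 month and 145 CPM after cold, so the 6-month library at room temperature was the highest of the mPRAT libraries, still below lPRAT (1194 CPM) and iWAT (1601 CPM) at 6 months. Lep, the gene of leptin, was at 34.5 and 105 CPM (log2 1.60, 1.44 to 1.76), with 40.4 CPM at 1 month and 20.1 CPM after cold. Nnat, neuronatin, a small membrane protein of the endoplasmic reticulum, was at 247 and 740 CPM (log2 1.58, 1.52 to 1.64). Aldh1a1, which makes retinoic acid from retinaldehyde, was at 60.1 and 158 CPM (log2 1.40, 1.27 to 1.52). In nuclei of 2000 to 6000 UMIs the log2 ratio was 0.87 for Npr3, 0.57 for Lep, 0.11 for Aldh1a1 and 1.07 for Nnat, so of these 4 only Nnat kept its 2-fold difference.

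The remaining members of the list differed by less than 2-fold or were under the minimum. Retn, the gene of resistin, was at 75.5 and 120 CPM, Slc7a10, a serine transporter of white adipocytes, at 172 and 214 CPM, and Fgf1 at 36.1 and 41.4 CPM. Cyp2e1, a cytochrome P450 that marks an adipocyte class in some brown depots, was lower, at 816 and 629 CPM (log2 -0.38, -0.41 to -0.34). Sncg (0.883 and 12.2 CPM) and Mest (0.294 and 9.65 CPM), both white adipocyte genes tied to adipocyte size, were under the minimum, as were Agt (2.65 and 0.785 CPM) and Tcf21, with 0 UMIs at 2 months and 12 at 6 months.

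The promoter of Lep is shown because its gene was among the white genes and its start region holds a palindrome bound by C/EBP factors. In the RefSeq window on GRCm38.p6, chr6:29059971-29060270, plus strand, from 250 bases before the start to 50 after it, capitals mark TTGCGCAA, searched on both strands. The match begins 55 bases before the start. This motif occurred in 60 of 32851 such windows (0.183%), and in 1 of the 14 windows of the white list.
Lep: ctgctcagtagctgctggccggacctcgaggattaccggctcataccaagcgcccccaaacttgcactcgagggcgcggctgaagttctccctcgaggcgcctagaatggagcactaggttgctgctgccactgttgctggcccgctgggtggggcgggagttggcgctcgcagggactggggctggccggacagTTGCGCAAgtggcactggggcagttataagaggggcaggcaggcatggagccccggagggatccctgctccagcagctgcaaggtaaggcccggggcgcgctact
Cebpa, the C/EBP factor of mature adipocytes, was itself at 18.4 CPM at 2 months and 44.1 CPM at 6 months (log2 1.26, 1.04 to 1.49). A match describes the letters only.

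**Figure D3:**
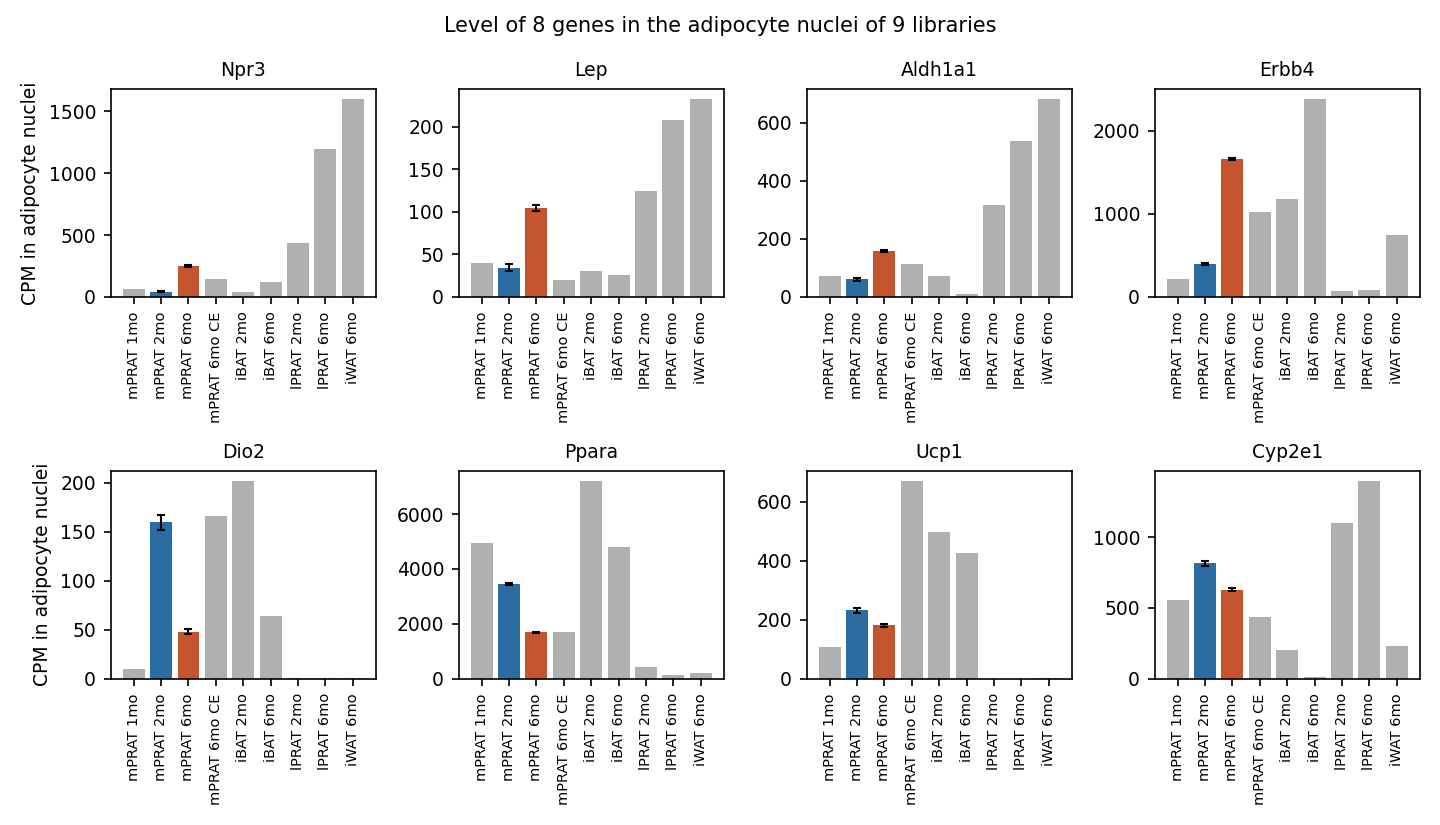
Level in CPM of 8 genes in adipocyte nuclei of 9 libraries, 1 bar per library, with mPRAT at 2 months in blue and at 6 months in orange and 95% Poisson intervals on these bars. Npr3, Lep and Aldh1a1 are higher at 6 months than at 2 months in mPRAT and highest in lPRAT and iWAT, while Dio2 and Ppara are lower at 6 months.

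Outside this list the largest ratios of named adipocyte-level genes were 5.39 to 2.73 on the log2 scale, and some rested on few nuclei. By rule, the 12 adipocyte-level genes with the largest ratio were Ptchd4, Slc14a2, Bc1, Mageb18, Rasgrf2, Emp1, Adamts5, Dtna, Ryr2, Cdh9, Dpt and Lhfpl2. Lhfpl2, a tetraspan membrane protein, was at 38.1 and 253 CPM (log2 2.73, 2.59 to 2.88). With every nucleus thinned to 1000 UMIs, it had a UMI in 2.50% of nuclei at 2 months (95% Clopper-Pearson 2.01 to 3.08) and 14.02% at 6 months (12.99 to 15.1), and in 4.87% and 33.8% without thinning. In macrophage-gated nuclei, which should lack adipocyte genes, the thinned shares were 0 of 141 and 3.38% of 385. Adamts5, a protease that cleaves aggrecan-type proteoglycans, was at 15.4 and 147 CPM (log2 3.25, 3.02 to 3.49). Rasgrf2, a Ras activator, was at 9.03 and 95.2 CPM, Emp1, a membrane protein, at 7.06 and 71.0 CPM, and Dtna, dystrobrevin alpha, at 9.81 and 92.5 CPM. Ryr2, the calcium release channel, was at 5.10 and 44.9 CPM, Cdh9, a cadherin, at 5.89 and 45.5 CPM, and Dpt, dermatopontin, a matrix protein, at 5.397 and 38.5 CPM.

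For Rasgrf2, Emp1, Adamts5 and Lhfpl2, the white depots iWAT and lPRAT at 6 months were above mPRAT at 6 months, and both iBAT ages were below it. Adamts5 stood at 902 CPM in iWAT and 303 CPM in lPRAT against 16.8 CPM in iBAT at 6 months. Ryr2 and Cdh9 differed from this, with 81.8 and 31.5 CPM in iBAT at 6 months, above their levels in iWAT (24.1 and 20.7 CPM). Dtna in iWAT (76.2 CPM) and Dpt in lPRAT (8.33 CPM) were below mPRAT at 6 months.

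The genes with the largest ratios of all sat in small groups of nuclei. At 6 months, 88 nuclei (2.06%) with 3 or more Ptchd4 UMIs held 95.3% of the UMIs of Ptchd4, a patched-domain membrane protein, and 81.6% of those of Mageb18, a MAGE-family gene. These nuclei were deep, with a median of 18194 UMIs. The gate genes Plin1 and Adipoq were at 1019 and 244 CPM in them, against 1089.5 and 217 CPM in the other adipocyte nuclei. Ucp1 was at 3.89 CPM in them against 191 CPM in the rest, Prdm16 at 44.0 against 658 CPM, and Ppara at 158 against 1792 CPM. Npr3 was at 1570 against 168 CPM, Aldh1a1 at 732 against 122 CPM, Lep at 332 against 90.3 CPM, and Mest at 108 against 3.51 CPM. These 2.06% of nuclei held 36.8% of the Npr3 UMIs and 65.8% of the Mest UMIs of the library. In the adipocyte nuclei of lPRAT at 6 months, Ptchd4 was at 352 CPM, Mageb18 at 687 CPM and Npr3 at 1194 CPM. Whether the 88 nuclei came from mPRAT or from tissue beside it cannot be told apart with these files, which bears on the Npr3, Aldh1a1, Ptchd4 and Mageb18 values of the library. These nuclei were picked by Ptchd4 after its values were seen, so the contrast is a description.

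Slc14a2, a urea transporter, was at 5.397 and 165 CPM, but 14 nuclei (0.328%) with 5 or more of its UMIs held 98.5% of them. In those nuclei Adipoq was at 11.8 CPM and Plin1 at 94.2 CPM, against 219 and 1091 CPM in the rest, while the kidney transcription factor genes Pax2 and Pax8 were at 1631 and 866 CPM and the water channel gene Aqp4 at 736 CPM. The adipocyte label was thus not borne out by the markers of these 14 nuclei, and without them Slc14a2 was at 2.53 CPM. Slc14a2 had also been at 301 CPM in mPRAT at 1 month. Bc1, a short non-coding RNA with copies elsewhere in the genome, was at 0.981 and 24.4 CPM, and its value is uncertain for that reason.

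Leaving the nuclei that hold Ptchd4, Mageb18 or Slc14a2 out of both libraries, an alternative chosen after seeing the data, gave 165 adipocyte-level genes at least 2-fold higher and a white list median of 0.80. Aldh1a1 then fell short of 2-fold and Ppara no longer passed it, while Npr3, Lep and Nnat still did.

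Members of the thermogenic list went both ways, and the summed list fell short of its 2-month level of 12420.1 CPM at 6 months, with 9330 CPM. In macrophage-gated nuclei its tested members summed to 4264 and 896 CPM, and the part of this background in the difference was not tested beyond subtracting it, which gave a list median of 0.35. Of 18 genes 16 passed the minimum (not Elovl3 and Cox7a1). Of the 16, 1 was at least 2-fold higher and 3 were at least 2-fold lower, beside 4.65% and 5.42% of all genes. The list median log2 ratio was -0.12, beside 0.085 over all genes. Ucp1, kept out of this list, was at 231 CPM at 2 months and 180 CPM at 6 months (log2 -0.36, -0.43 to -0.29). It stood at 106 CPM at 1 month and 671 CPM after cold, so the range over the mPRAT libraries was wider than the difference between 2 and 6 months. In nuclei thinned to 1000 UMIs, Ucp1 was seen in 17.0% at 2 months (15.7 to 18.3) and 13.2% at 6 months (12.2 to 14.3). Without thinning the shares were 21.6% and 28.2%, the opposite order, at median depths of 1798 and 6136 UMIs. Macrophage-gated nuclei had a thinned share of 0 of 141 and 1.04% of 385. Within nuclei of 2000 to 6000 UMIs the list median was 0.24, above 0, but the summed list was still slightly lower at 6 months (12814 and 12224 CPM), and Ucp1 was about level (log2 0.024).

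Dio2, the deiodinase that makes active thyroid hormone inside brown adipocytes, was the most changed of the tested thermogenic genes over all gated nuclei. In nuclei of 2000 to 6000 UMIs Cox8b (log2 2.13) differed more than Dio2 (-1.29). Over all gated nuclei Dio2 was at 160 CPM at 2 months and 47.8 CPM at 6 months (log2 -1.74, -1.84 to -1.63), with 9.98 CPM at 1 month and 167 CPM after cold. In iBAT it was at 202 and 63.7 CPM at the same ages, and in lPRAT under 1 CPM at both. Dio2 is switched on by cAMP, and its promoter is shown because it holds a full cAMP response element. The RefSeq window on GRCm38.p6, chr12:90738989-90739288, minus strand, is written along the gene, with TGACGTCA in capitals, a palindrome that reads the same on both strands.
Dio2: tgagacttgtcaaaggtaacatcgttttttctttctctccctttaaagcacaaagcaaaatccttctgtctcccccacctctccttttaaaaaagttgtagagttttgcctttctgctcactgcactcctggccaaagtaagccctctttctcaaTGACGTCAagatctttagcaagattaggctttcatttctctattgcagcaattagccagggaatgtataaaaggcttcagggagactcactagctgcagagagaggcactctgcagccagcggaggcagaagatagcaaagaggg
The match begins 95 bases before the start. This motif occurred in 588 of 32851 windows (1.79%), in 1 of the 17 windows of the thermogenic list, and in none of the 11 windows of the 12 named higher genes. The fatty acid synthesis list had it in 2 of 19 windows, those of Elovl5 and Pnpla3.

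Ppara, the nuclear receptor for fatty acid oxidation, was at 3466 and 1696 CPM (log2 -1.03, -1.05 to -1.01), after 4936 CPM at 1 month. Its thinned share was 73.4% and 52.4% of adipocyte nuclei, and 28.4% and 3.12% of macrophage-gated nuclei. With the macrophage-gated level subtracted its log2 ratio was -0.78. Ppara was also short of 2-fold with doublets removed and with at least 1000 genes per nucleus. Its partner Rxra was at 111 and 54.6 CPM (log2 -1.02, -1.13 to -0.91), and at a log2 ratio of -0.97 without nuclei holding other markers. Prdm16, which holds brown identity, was at 929 and 622 CPM, Kcnk3, a potassium channel that dampens heat production, at 534 and 294 CPM, Esrrg, an orphan receptor of oxidative genes, at 1632 and 1126 CPM, Ppargc1b at 1825 and 1440.0 CPM, and Cidea at 618 and 500 CPM. None of these 5 reached 2-fold. Other members went the opposite way. Cox8b, a respiratory subunit, was at 17.0 and 35.4 CPM (log2 1.06, 0.83 to 1.30, with 0.86 under the gate against 11 marker lists and 2.13 in nuclei of 2000 to 6000 UMIs), Letmd1 at 34.3 and 50.7 CPM, Acot11 at 82.4 and 114 CPM, and Ebf2, a brown lineage factor, at 1171 and 1374 CPM. Ppargc1a, the coactivator of mitochondrial genes, was at 561 and 588 CPM, Gk, glycerol kinase, at 580 and 663 CPM, Pank1 at 444 and 481 CPM, and Cpt1b at 188 and 209 CPM. Slc27a2, a fatty acid transport protein, was at 172 and 76.4 CPM, but at 290 CPM in nuclei outside the gate at 2 months, where proximal tubule markers summed to 2190 CPM. Its log2 ratio was -0.42 without nuclei holding markers of other cell types.

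Mitochondrial genes beyond this list gave small differences over all gated nuclei. Of 24 nuclear genes of the respiratory chain, 23 passed the minimum, with a median of 0.15, and Cox8b alone reached 2-fold, which it did not do with the gate against 11 marker lists. In nuclei of 2000 to 6000 UMIs Cox8b (2.13), Cox5b (1.44), Ndufv1 (1.16) and Cox6c (1.10) were past 2-fold. Of 18 fatty acid oxidation genes, 17 passed the minimum and none reached 2-fold either way, with a median of 0.15. Acadm was at 380 and 344 CPM and Hadhb at 282 and 333 CPM.

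The fatty acid synthesis list was higher at 6 months, with 17 of 18 genes over the minimum and a median of 0.76, beside 0.085 over all genes. The summed list was at 8115 and 9854 CPM. Thinned nuclei had a median of 8 UMIs of these genes at both ages, and 90.4% and 86.1% had 3 or more. With the gate against 11 marker lists, the sum in nuclei of 1000 to 2000 UMIs was lower at 6 months (9253 and 8073 CPM, 1653 and 72 nuclei). In deeper nuclei it was higher, with 9299 and 10966 CPM in those of 2000 to 6000 UMIs. Of the 17, 5 were at least 2-fold higher and 1 at least 2-fold lower, beside 4.65% and 5.42% of all genes. Acly, which makes cytosolic acetyl-CoA from citrate, was at 155 and 326 CPM (log2 1.08, 1.00 to 1.16, and 0.98 with the gate against 11 marker lists). Slc25a1, which carries that citrate out of the mitochondrion, was at 13.4 and 37.2 CPM (log2 1.47, 1.21 to 1.74), and Me1, malic enzyme, a source of NADPH, at 359.5 and 732 CPM (log2 1.03, 0.97 to 1.08). Me1 was short of 2-fold with TMM scaling, after thinning (0.99), in nuclei of 2000 to 6000 UMIs (0.57) and under some other settings. Insig1, a sterol-regulated brake on SREBP processing, was at 17.9 and 65.9 CPM (log2 1.88, 1.66 to 2.11). Scd2 was at 12.1 and 30.2 CPM, lower than in nuclei outside the gate (32.3 and 48.5 CPM). Fasn, fatty acid synthase, was higher but short of 2-fold over all gated nuclei, at 171 and 321 CPM. In nuclei of 2000 to 6000 UMIs it was past 2-fold (log2 1.15). Also higher but short of 2-fold were Srebf1 at 92.3 and 161 CPM, Acss2 at 253 and 439 CPM, and Pnpla3 at 302 and 513 CPM. So was Acaca, the cytosolic acetyl-CoA carboxylase, at 2497 and 4012 CPM. Acacb, the mitochondrial carboxylase whose product restrains fatty acid entry, went the other way, at 2449 and 1385 CPM (log2 -0.82, -0.84 to -0.80). Mlxipl (542 and 610 CPM), Thrsp (258 and 275 CPM), Scd1 (344 and 364 CPM), Elovl6 (535 and 490 CPM) and Elovl5 (92.8 and 80.1 CPM) differed little. Fads2 was at 14.9 and 6.57 CPM, with 72.7 CPM outside the gate at 2 months and a log2 ratio of -0.08 without nuclei holding other markers, and Fads1, at 6.28 and 4.81 CPM, was under the minimum.

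The promoters of Slc25a1 and Insig1 are shown because both genes more than doubled and both windows hold an E-box, CACGTG, the palindrome read by basic helix-loop-helix factors. Both are RefSeq windows on GRCm38.p6, chr16:17928170-17928469 on the minus strand for Slc25a1 and chr5:28071162-28071461 on the plus strand for Insig1, with the E-box in capitals.
Slc25a1: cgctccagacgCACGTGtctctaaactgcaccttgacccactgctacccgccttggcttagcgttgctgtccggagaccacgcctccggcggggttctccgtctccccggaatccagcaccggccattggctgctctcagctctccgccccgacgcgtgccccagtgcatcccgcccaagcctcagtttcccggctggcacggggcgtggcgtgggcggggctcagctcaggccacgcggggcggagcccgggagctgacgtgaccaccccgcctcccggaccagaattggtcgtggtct
Insig1: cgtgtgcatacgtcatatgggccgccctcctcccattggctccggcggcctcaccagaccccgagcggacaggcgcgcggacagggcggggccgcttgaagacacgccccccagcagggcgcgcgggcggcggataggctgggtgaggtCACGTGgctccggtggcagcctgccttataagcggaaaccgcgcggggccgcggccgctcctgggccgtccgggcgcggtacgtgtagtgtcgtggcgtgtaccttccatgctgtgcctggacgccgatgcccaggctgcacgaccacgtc
The matches begin 239 and 101 bases before the start. CACGTG occurred in 2349 of 32851 windows (7.15%) and in 4 of the 19 windows of the fatty acid synthesis list (21.1%), those of Elovl5, Insig1, Mlxipl and Slc25a1, of which Elovl5 and Mlxipl differed little in level.

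Lipid storage and breakdown genes were largely at the same level. All 15 triglyceride genes passed the minimum, with a median of 0.19, and G0s2, an inhibitor of the lipase Pnpla2, was the only one past 2-fold, at 80.0 and 190 CPM (log2 1.25, 1.14 to 1.36). Plin5, at a log2 ratio of 0.24 over all gated nuclei, was also past it in nuclei of 2000 to 6000 UMIs (1.11). Pck1, which supplies glycerol for re-esterification, was at 1345 and 739 CPM, and Cd36, Fabp4 and Lpl, for fatty acid uptake, were at 1332 and 1867, 1198 and 1566, and 1278 and 1220 CPM. All 19 genes of lipolysis and adrenergic signalling passed the minimum, with a median of -0.10. Besides Npr3, Adcy3, an adenylyl cyclase, was past 2-fold, at 254 and 116 CPM (log2 -1.13, -1.21 to -1.06). Pde3b, Prkar2b, Pde4d and Mgll, the genes of this list with the highest levels, had log2 ratios between -0.21 and 0.15. Adrb3, the main beta-adrenergic receptor of rodent adipocytes, chosen after its values were seen, was at 280 and 541 CPM (log2 0.95).

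Growth factor and hormone receptors held 1 of the clearest differences. Erbb4, the receptor of neuregulins, was at 394 CPM at 2 months and 1661 CPM at 6 months (log2 2.08, 2.03 to 2.12), after 218 CPM at 1 month. Its thinned share was 21.04% of nuclei (19.7 to 22.4) at 2 months and 61.4% (59.9 to 62.8) at 6 months, with 4.26% and 4.68% in macrophage-gated nuclei. At 6 months Erbb4 was at 2386 CPM in iBAT, 740 CPM in iWAT and 84.2 CPM in lPRAT, so iBAT was above mPRAT and both white depots below it. Nrg4, a ligand of Erbb4 made by brown adipocytes, was at 1927 and 2111 CPM. Of the 15 receptors 14 passed the minimum, with a median of 0.19, and Igf1r was the only one past 2-fold down, at 244 and 87.6 CPM, with 877 CPM outside the gate at 2 months. Its log2 ratio of -1.48 became -0.90 with the gate against 11 other marker lists and -0.45 without nuclei holding markers of other cell types, so the call was lost. Ghr, the growth hormone receptor, was at 6097 and 6161 CPM, and Ntrk3 at 1354 and 2175 CPM. Tshr, the thyrotropin receptor, chosen after its values were seen, had a thinned share of 11.8% at 2 months and 28.2% at 6 months, with 0.709% and 1.82% in macrophage-gated nuclei.

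Matrix genes of adipocytes had a median of 0.72 over the 10 of 13 that passed the minimum. Of these, 4 were at least 2-fold higher and none lower, beside 4.65% and 5.42% of all genes. They were Col15a1, a basement membrane collagen, at 22.4 and 105 CPM (log2 2.22, 2.03 to 2.42), Nid1, nidogen, at 20.3 and 87.0 CPM, Col5a3 at 9.42 and 34.96 CPM, and Col6a3 at 6.18 and 22.2 CPM. At 2 months all 4 were at higher levels outside the gate (24.5 to 63.0 CPM). In nuclei of 2000 to 6000 UMIs Col15a1 had a log2 ratio of 0.40, and the 88 nuclei with Ptchd4 held 35.5% of its UMIs at 6 months. Col5a3 was at 0.94 without nuclei holding other markers. Lama4, a laminin of the adipocyte basement membrane, was at 938 and 1363 CPM, and Col4a1 and Col4a2 at 271 and 258, and 252 and 239 CPM.

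Among other lists, the clock genes had a median of -0.08 with 1 higher and 3 lower by 2-fold. Nr1d1, the clock repressor REV-ERB alpha, was at 30.7 and 68.3 CPM, while Cry1 was at 30.5 and 12.6 CPM and Npas2 at 19.1 and 3.20 CPM with 83.3 CPM outside the gate at 2 months. Without nuclei holding other markers the log2 ratio of Npas2 was -0.99. The hour of collection is not in the labels used here. Irs2, an insulin signalling adaptor, was at 190 and 87.2 CPM (log2 -1.12, -1.21 to -1.04), the only one past 2-fold of 15 insulin and glucose genes. Rbp4, the retinol carrier, was at 11.9 and 30.5 CPM and, with Lep, the second secreted factor past 2-fold of 13, but its log2 ratio was 0.79 without nuclei holding other markers and 0.95 in nuclei of 2000 to 6000 UMIs. Among 15 adipocyte transcription factors, Cebpa and Rxra passed 2-fold. Rxra did not without nuclei holding other markers, and Cebpa did not with 10 CPM added to both levels (0.93), after thinning (0.99) or with the macrophage-gated level subtracted (0.90). Pparg, the master regulator of the lineage, was at 2998 and 3929 CPM. Alpl, a phosphatase proposed in creatine cycling, was at 53.6 and 4.02 CPM, with 199 CPM outside the gate at 2 months. None of 6 hypoxia genes and neither of 2 stress genes over the minimum reached 2-fold.

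**Figure D4:**
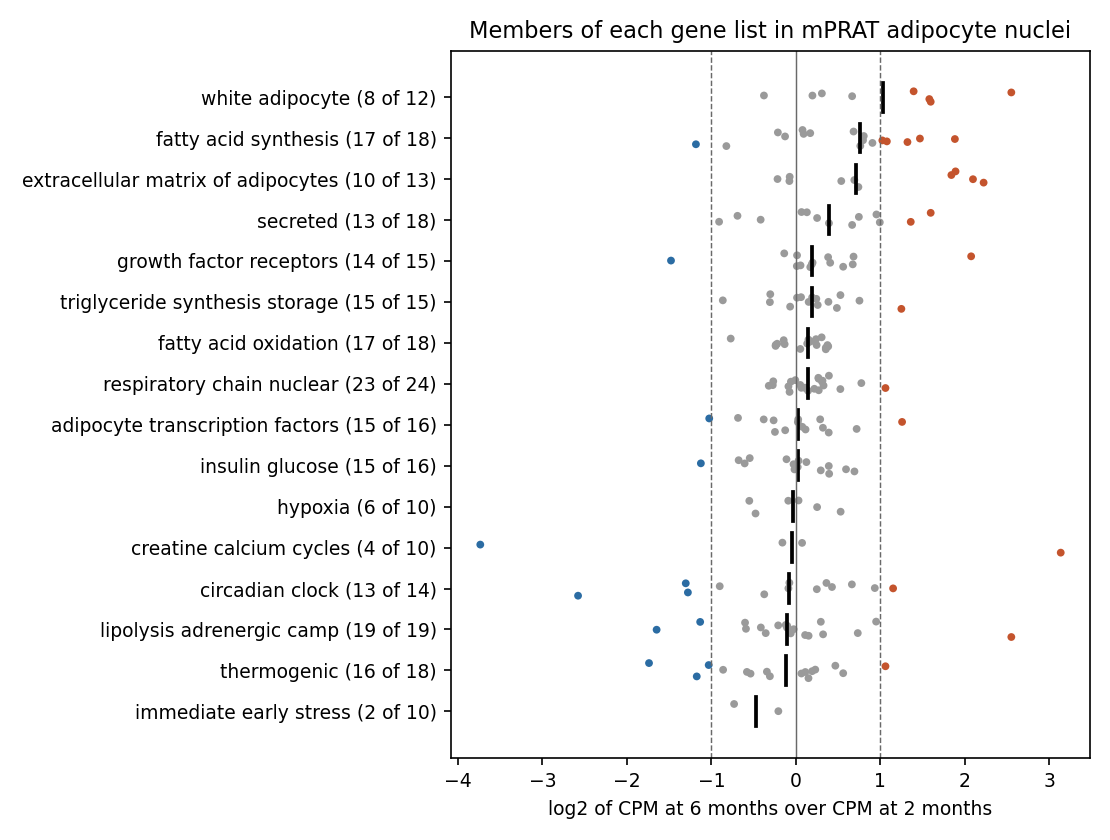
log2 ratio of the 6-month over the 2-month level for each member of 16 gene lists that passed the minimum (1 point per gene, vertical spread only for visibility), with the list median as a black bar, 2-fold lines dashed, and the number passing of all members in parentheses. White adipocyte, fatty acid synthesis and matrix lists lie to the right, with medians of 1.03, 0.76 and 0.72, and the thermogenic list spans both sides of 0.

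In the main values 39 adipocyte-level genes were lower by 2-fold, a number that was 16 with 10 CPM added, 70 after thinning and 117 with the macrophage-gated level subtracted. Beside Dio2, those with the largest ratio included Fhl3, Acat3, Col7a1, BB365896, Irf4, Atg4a, Zfp574, Resf1, Mmd2 and Sdc4. Irf4, a fasting-induced factor that partners Ppargc1a in brown fat, was at 67.4 and 24.5 CPM (log2 -1.46, -1.61 to -1.31). Resf1, a nuclear factor that silences retroelements, was at 478 and 181 CPM, Sdc4, syndecan, at 75.8 and 29.8 CPM, and Atg4a, an autophagy protease, at 71.8 and 27.0 CPM. Fhl3 was at 16.3 and 3.96 CPM, Col7a1 at 18.1 and 5.66 CPM, Zfp574 at 24.2 and 9.12 CPM, and Mmd2 at 16.7 and 6.44 CPM. With 10 CPM added to both levels, these 4 were short of 2-fold (Fhl3 at -0.91, Col7a1 and Zfp574 at -0.84, Mmd2 at -0.70), and in nuclei of 2000 to 6000 UMIs so were Col7a1 (-0.84) and Sdc4 (-0.88). That addition left 39 of the 54 listed and named genes past 2-fold. Acat3 (24.5 and 6.11 CPM) is a near copy of Acat2, and BB365896 (18.1 and 6.47 CPM) is annotated antisense, so both values are uncertain. In iBAT, Resf1 was at 583 and 172 CPM and Mmd2 at 49.8 and 14.5 CPM at the same ages.

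Levels in libraries outside this comparison gave the same genes a place among the depots. Of the 192 genes that were higher, 182 also passed the minimum in iWAT and iBAT at 6 months, and 100 of them (54.9%) were at least 2-fold higher in iWAT, against 469 of all 4203 adipocyte-level genes (11.2%). The 100 are 21.3% of those 469. For lPRAT over iBAT at 2 months the share was 104 of 170 (61.2%) against 544 of 4148 (13.1%), and the 104 are 19.1% of the 544. The other way, 25 of the 182 (13.7%) were at least 2-fold lower in iWAT and 14 of the 170 (8.24%) in lPRAT. Of 38 lower genes 15 (39.5%) were at least 2-fold lower in lPRAT than in iBAT, against 979 of 4148 (23.6%). Of the 39 lower genes, 14 of the 29 that could be compared (48.3%) were at least 2-fold lower in iWAT than in iBAT, against 808 of 4203 (19.2%). At least 2-fold higher were 5 of these 29 (17.2%) in iWAT and 5 of the 38 (13.2%) in lPRAT. The 192 and 39 genes come from all gated nuclei, and these shares were not computed without the nuclei holding Ptchd4, Mageb18 or Slc14a2.

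Age ratios in the other depots can be set beside these, since they use other libraries. Of the 148 higher genes that passed the minimum in iBAT, 41 (27.7%) were at least 2-fold higher at 6 than at 2 months there and 15 (10.1%) at least 2-fold lower, against 195 (4.71%) and 147 (3.55%) of the 4138 adipocyte-level genes that passed there. Of 35 lower genes, 21 (60.0%) were at least 2-fold lower in iBAT too, 14.3% of the 147. In lPRAT 60 of 179 (33.5%) were at least 2-fold higher, 13.9% of the 432 there, which are 10.8% of 4018, and 11 (6.15%) at least 2-fold lower there. Of 29 lower genes, 13 (44.8%) were at least 2-fold lower in lPRAT, against 202 of 4018 (5.03%). Median depth per adipocyte nucleus was also higher at 6 than at 2 months in iBAT (2307 and 1531 UMIs) and in lPRAT (6094 and 955 UMIs). Over all genes, 4.52% were at least 2-fold higher and 4.09% lower in iBAT, and 9.94% higher and 7.37% lower in lPRAT. The white list had a median of -2.36 in iBAT and 0.79 in lPRAT, and the fatty acid synthesis list 0.67 in iBAT and -0.62 in lPRAT.

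Depth per nucleus moved with the levels inside each library. With a stricter gate, in which adipocyte UMIs also had to exceed those of 11 other marker lists, nuclei were split by their UMIs. In nuclei of 2000 to 6000 UMIs (1499 at 2 months, 1733 at 6 months), the 8 white genes over the minimum summed to 1734 and 1711 CPM, the 7 other than Cyp2e1 to 775 and 1122 CPM, and the 16 thermogenic genes to 13140 and 12595 CPM. In nuclei of 6000 to 10000 UMIs (101 and 1354) the 8 white genes summed to 2289 and 1934 CPM, the 7 without Cyp2e1 to 998 and 1346 CPM, and the thermogenic genes to 8399 and 10614 CPM. In nuclei of 1000 to 2000 UMIs (1653 and 72) the thermogenic genes summed to 16178 and 10570.2 CPM. In the bands from 2000 to 10000 UMIs the 7 white genes other than Cyp2e1 were thus higher at 6 months, while the sum with Cyp2e1, which was lower, was close or lower. Cyp2e1 was the only 1 of the 8 that was lower over all gated nuclei, so leaving it out favours a higher sum. Thermogenic genes were lower at 6 months in nuclei of 1000 to 2000 UMIs, close in those of 2000 to 6000 and higher in those of 6000 to 10000.

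Single genes split in the same way. Erbb4 was at 448 and 1719 CPM in nuclei of 2000 to 6000 UMIs and at 481 and 1865 CPM in those of 6000 to 10000, and Acly at 179 and 350 CPM, and 164 and 376 CPM. Dio2 was lower in both bands, at 166 and 67.2 CPM, and 201 and 55.9 CPM. Ucp1 was at 234 CPM at both ages in the first of these bands and at 94.3 and 214 CPM in the next. Ppara was at 3607 and 2429 CPM, and then at 1842 and 1936 CPM. Npr3 at 6 months was at 93.8 CPM in nuclei of 2000 to 6000 UMIs and 464 CPM in the 771 nuclei with 10000 or more, where the 2-month library had 20 nuclei. Under the main gate, 36 of the 54 listed and named genes past 2-fold stayed past it in nuclei of 2000 to 6000 UMIs, and Npr3, Lep, Aldh1a1, Acly, Me1, Ppara, Adcy3 and Irs2 were among those that did not. Whether depth itself or the kind of nucleus sets these levels was not tested.

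**Figure D5:**
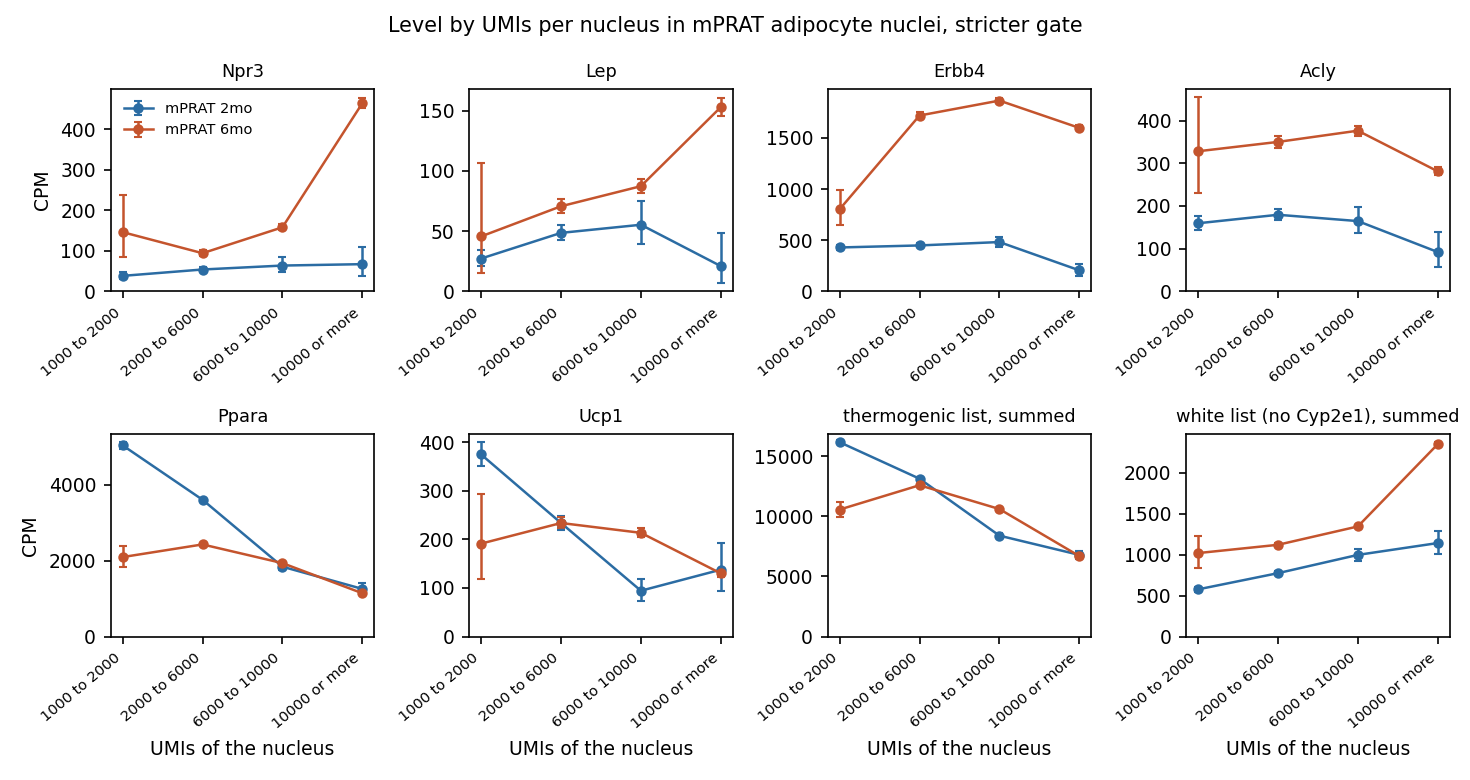
Level in CPM, with 95% Poisson intervals, of 6 genes and 2 summed lists by the UMIs of the nucleus (4 bands), at 2 months (blue) and 6 months (orange) under the stricter gate. Erbb4, Acly and the white list without Cyp2e1 are higher at 6 months in each band, and the lines of Ucp1, Ppara and the thermogenic list meet or cross. The white list with Cyp2e1 is not drawn and summed to 1734 and 1711 CPM in nuclei of 2000 to 6000 UMIs.

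Thinned nuclei were also split by a Ucp1 UMI (590 with one at 2 months, 555 at 6 months). In nuclei without Ucp1 the 8 white genes summed to 1712 and 2121 CPM and the 7 other than Cyp2e1 to 746 and 1454 CPM. In those with Ucp1 the 8 summed to 390 and 467 CPM, a 6-month over 2-month ratio of 1.197 (0.998 to 1.436). The 7 summed to 141 and 339 CPM, beside 229 and 158 CPM in macrophage-gated nuclei, so the 2-month value is read as background. The fatty acid synthesis genes gave 6-month over 2-month ratios of 1.57 (1.52 to 1.63) with and 1.08 (1.07 to 1.10) without a Ucp1 UMI. The thermogenic genes gave 0.841 (0.821 to 0.861) and 0.728 (0.717 to 0.740). Per thinned nucleus, the 16 thermogenic genes had a median of 12 UMIs at 2 months and 6 at 6 months, and the upper 10% began at 31 and 26 UMIs. In macrophage-gated nuclei these 16 genes summed to 4264 and 896 CPM. This background was not subtracted from the ratios and medians here, and its part in them was not tested.

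Ucp1 and Cyp2e1 were seen in the same nucleus less often than either alone at both ages. Both were seen in 3.17% of thinned nuclei at 2 months and 1.22% at 6 months, Ucp1 alone in 13.8% and 12.02%, Cyp2e1 alone in 38.1% and 31.4%, and neither in 44.9% and 55.4%. Among nuclei with a Ucp1 UMI, 18.6% also had Cyp2e1 at 2 months and 9.19% at 6 months, against 45.9% and 36.1% of nuclei without Ucp1. In macrophage-gated nuclei Cyp2e1 was seen in 8.51% and 4.16%, so part of the joint detection is at the level of background.

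The positions of the genes the description turns on are from GENCODE release M21 on GRCm38. Npr3 spans chromosome 15, 11839896 to 11907287, Lep chromosome 6, 29060220 to 29073877, Erbb4 chromosome 1, 68032186 to 69108059, and Dio2 chromosome 12, 90724552 to 90738438. Ppara spans chromosome 15, 85734983 to 85802819, Ucp1 chromosome 8, 83290352 to 83298452, Acly chromosome 11, 100476353 to 100528000, and Insig1 chromosome 5, 28071363 to 28078662. The RefSeq window of Dio2 is placed on another start, upstream of this GENCODE span, and its motif distance is counted from the RefSeq start. All 8 are protein-coding genes, and the counts are per whole gene.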

How the data were processed

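The deposited files hold raw UMI counts per gene and barcode, made with Cell Ranger 7.0.0 per the file headers, on build mm10 per the submitters' processing notes. Neither the gene annotation nor how introns were counted is given in the sources used here. The libraries used the 10x 3′ chemistry on nuclei, per the labels' protocols, so values follow 3′ ends and levels of different genes are not per length. Every barcode of the mPRAT libraries at 2 and 6 months had at least 500 UMIs, and their totals were 26047446 and 49013005.

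Counts of gated nuclei were summed per library and scaled to 1000000 per library (CPM), and a count of 0 was set to 3 counts in a ratio. The call was a 2-fold ratio among genes with a mean of at least 10 CPM and 50 UMIs. Intervals are exact (conditional binomial, Poisson or Clopper-Pearson) at 95% and cover counting error only. Thinning drew 1000 UMIs per nucleus and left out 690 and 71 shallower nuclei. No doublets were removed in the values given. scanpy 1.11.5 scored doublets and edgeR 4.0.16 gave TMM factors for 2 of the alternatives. The ratio code was tested on simulated data. Named genes were Ucp1, the 12 largest ratios each way among adipocyte-level genes (predicted genes, clone names, mitochondrial, ribosomal and Y-linked genes and Xist left out), all members of the thermogenic, white and fatty acid synthesis lists, and in other lists those past 2-fold or with the highest levels. Members, lists and alternatives were chosen with earlier results of these data known. Promoters are RefSeq windows on GRCm38.p6. They were found for 12 of 18 thermogenic, 11 of 12 white and 15 of 18 fatty acid synthesis genes, and for 9 of the 12 named higher genes. A few genes that the naming rule selects are not reported here.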

Additional observations from a re-analysis of the deposited data

Results flagged for a closer look

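Some genes and lists moved in opposite directions between 2 and 6 months in mPRAT and in another depot. Each depot has 1 library per age, so these differences were not tested. The white adipocyte list had a median log2 ratio 3.39 higher in mPRAT than in iBAT. In iBAT 5 of 8 members were at least 2-fold lower at 6 months and 2 at least 2-fold higher. Each median is over the members that passed the minimum in that depot. The fatty acid synthesis list median was 1.38 higher in mPRAT than in lPRAT, where it was -0.62. Among single genes on the log2 scale, Mageb18 differed by 6.06 and Dtna by 5.23 between mPRAT and iBAT, and Dpt by 4.37 between mPRAT and lPRAT.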

How the results depend on the processing

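Every comparison rests on 1 library per age. No paired analysis was possible because each group has 1 library, and no library could be left out. The white list median stayed above 0 under all 15 alternatives, between 0.39 (nuclei of 2000 to 6000 UMIs) and 1.53 (macrophage-gated level subtracted), and that of fatty acid synthesis between 0.54 and 0.79. The following counts moved by over 1.5 times, and the cause was not tested unless the setting itself changes which genes or nuclei enter.

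Of all genes, those at least 2-fold higher numbered 2588 with no minimum level, 218 with 10 CPM added and 929 with the macrophage-gated level subtracted. Those at least 2-fold lower numbered 5989 with no minimum, 299 with at least 5 adipocyte UMIs, 279 with Acsl1 left out of the gate, 150 with the gate against 11 marker lists, 113 without nuclei holding other markers, 260 after thinning, 242 as the mean of nuclei and 246 in nuclei of 2000 to 6000 UMIs. Adipocyte-level genes that were higher numbered 830 with no minimum, 104 with 10 CPM added and 446 with the macrophage level subtracted. Those lower numbered 2846, 16 and 117 under the same settings, 59 with the 11-list gate, 61 without nuclei holding other markers, 22 with at least 1000 genes, 70 after thinning and 60 as the mean of nuclei. With no minimum, a 2-month count of 0 was set to 3 counts (0.294 CPM), while 1 UMI at 6 months was 0.0327 CPM. A gene seen only at 6 months could then be called lower, so 5989 and 2846 are not read as numbers of genes that were lower.

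The Ucp1 log2 ratio was -0.44 with at least 5 adipocyte UMIs, -0.51 with the 11-list gate, -0.52 without nuclei holding other markers, -0.64 after thinning, -0.61 as the mean of nuclei, -0.071 with at least 1000 genes, -0.26 without nuclei holding Ptchd4, Mageb18 or Slc14a2, and 0.024 in nuclei of 2000 to 6000 UMIs. The thermogenic median was 0.24 in those nuclei, 0.35 with the macrophage level subtracted and 0.090 with no minimum level. Among genes past 2-fold, directions reversed for Slc14a2 (-1.01 without the nuclei named), Mageb18 (-1.51 in nuclei of 2000 to 6000 UMIs), and, with the macrophage level subtracted, Zfp574 (0.56). With that level subtracted Slc27a2 was at 7.92, on a 2-month level at or near the floor of 3 counts (0.294 CPM). Scd2 was at -1.59, as were Fads2, Npas2 and Igf1r. That value is the ratio of 3 counts in each library, so it gives no direction for Scd2. Alternatives chosen after seeing the data numbered 5.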
